A study of Mus musculus with 68 samples.

Results

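The genes described here encode subunits of the mitochondrial respiratory chain and ATP synthase. They were chosen by name (Nduf genes of the a, b, c, s and v series, Sdha to Sdhd, and genes starting with Uqcr, Cox4 to Cox8 or Atp5), and 84 of the 24941 genes listed in the series matched. Complex I gave 37 of them, complex II 4, complex III 8, complex IV 18 and complex V 17. Complexes were assigned by name, so Ndufa4 and Ndufa4l2 are counted under complex I, although Ndufa4 is now placed in complex IV. The names also took in Atp5s and Atp5sl, which are not chain subunits by current naming, and they do not reach the subunits encoded by mitochondrial DNA. Levels are FPKM, fragments scaled by transcript length and library total, so they can be compared between genes. A gene was kept in a table if it reached 1 FPKM in at least 2 libraries. By that filter 76 genes were kept in all 8 tables, and of the other 8, Cox8b was kept in none.

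Mouse oocytes and embryos were profiled by Smart-seq2, a full-length RNA method for very small samples, to compare expression with and without Ezhip, an X-linked gene whose product restrains the histone methyltransferase complex PRC2. Oocytes labelled FGO comprised 2 wild type (WT), 2 heterozygous (Het) and 3 Ezhip knockout (KO) libraries. Embryos carried the labels wild type, mHet or mKO. There were 2 libraries of each label in 1-cell embryos (PN5), late 2-cell embryos, a first set of E3.5 blastocysts, and E6.5 epiblast and extraembryonic ectoderm, 5 of each in a second set of E3.5 blastocysts, 2 WT, 1 mHet and 3 mKO in 8-cell embryos, and 4 WT, 1 mHet and 4 mKO at E4.25. The sources used here give no strain or sex and do not say whether libraries came from separate animals, so a p-value reflects only the spread among these libraries, which may be technical.

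Electrons enter the chain at complex I from NADH or at complex II from succinate, pass through complex III to complex IV, which reduces oxygen, and the proton gradient that builds up drives ATP synthase, complex V. Mammalian oocytes inherit a large stock of mitochondria that replicate little until after implantation, and cleavage embryos run mainly on pyruvate before glucose use rises at the blastocyst stage. Several complex IV subunits exist as pairs of genes, of which the second is known from particular tissues: Cox6b2 from testis, Cox6a2, Cox7a1 and Cox8b from heart and skeletal muscle, and Cox4i2 from lung. The c ring of ATP synthase is the exception, since Atp5g1, Atp5g2 and Atp5g3 encode the same mature protein behind different import signals.

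The libraries followed their labels where this could be read. Ezhip was 297 to 546 FPKM in WT oocytes against at most 0.175 in KO, 251 to 368 against at most 0.933 in 1-cell embryos and 15.7 to 15.9 against at most 0.585 in late 2-cell embryos; later its WT level was at most 1.5 FPKM and checks nothing. All 7 oocyte markers, all 6 markers of the 2-cell stage and all 8 epiblast and 8 extraembryonic ectoderm markers reached 1 FPKM in every library of their stage or tissue, and all 7 blastocyst markers did so at E3.5, but 4 of 7 at E4.25. The precursor of ribosomal RNA, Rn45s, took 0.209 to 11.6% of the summed FPKM in oocytes, 1-cell to 8-cell embryos and E6.5 tissues, 2.13 to 21.0% in the first E3.5 set, 9.19 to 69.5% in the second and 11.7 to 68.6% at E4.25. FPKM is a share of a library, so such a transcript lowers every other value.

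The respiratory chain genes took a small share of the summed FPKM at the 1-cell stage and a larger one in the blastocyst. With Rn45s left out, they took 2.08 to 2.87% of the summed FPKM in oocytes, 0.908 to 1.09% in 1-cell embryos, 2.11 to 2.84% in late 2-cell embryos, 3.46 to 3.78% in 8-cell embryos and 5.01 to 6.78% in the first E3.5 set. The second E3.5 set ran from 3.06 to 7.47%, E4.25 from 1.98 to 7.83%, epiblast from 3.65 to 4.57% and extraembryonic ectoderm from 4.32 to 5.53%. No 1-cell library reached any oocyte library, and every 8-cell library lay above every late 2-cell one. The rank of the genes within a library moved the same way: among genes at 1 FPKM or more, the median percentile of the respiratory chain genes was 87.8 to 92.1 in oocytes, 64.4 to 74.2 in 1-cell embryos, 83.0 to 86.1 in late 2-cell embryos, 91.4 to 92.6 in 8-cell embryos and 95.7 to 97.2 in the first E3.5 set. The tables were normalized separately by the authors, so stages are set side by side with no test. They also list unequal numbers of genes, and both measures were taken over the genes listed. These were 24056 in oocytes, 14055 in 1-cell and in 8-cell embryos, 15118 in late 2-cell embryos and 23637 in the first E3.5 set. The part of this in the stage differences was not tested. Where a bulk sample holds several cell types, fewer cells of a type and less RNA per cell cannot be told apart. At every stage FPKM is a share of a library, so a lower or higher value is not a measured change in RNA amount.

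**Figure D1:**
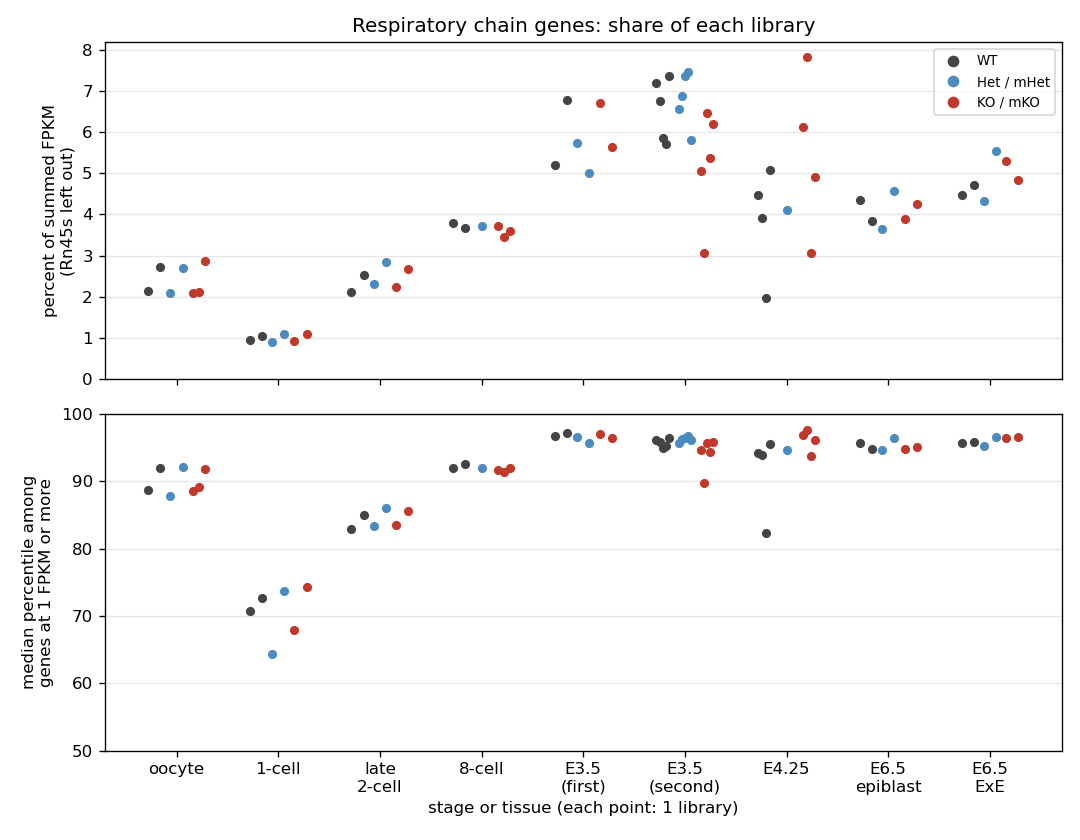
Top, percent of the summed FPKM of each library, without Rn45s, taken by the respiratory chain genes; bottom, their median percentile among genes at 1 FPKM or more. Each point is 1 library, in the order WT, Het or mHet, KO or mKO within a stage. The 1-cell libraries sit lowest in both panels, at 0.908 to 1.09% and at percentiles 64.4 to 74.2. WT and mKO or KO ranges overlap in the top panel at each stage other than extraembryonic ectoderm, where mKO libraries are at 4.82 and 5.29% and WT libraries at 4.47 and 4.72%.

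The subunits did not keep fixed proportions. Of the 79 genes at a median of 1 FPKM or more in either oocytes or 1-cell embryos, 70 had the lower median in 1-cell embryos and 51 were lower in all 6 1-cell libraries than in all 7 oocyte libraries. Ndufa10 and Sdha were higher in every 1-cell library than in any oocyte library. From the 1-cell to the late 2-cell stage 57 of 80 medians were higher and 23 lower, with 48 genes above and 11 below in every library. From late 2-cell to 8-cell embryos 74 of 80 were higher, with 54 above in every library, and only Cox4i2 and Cox6b2 below in every library. From 8-cell embryos to the first E3.5 set 72 of 80 medians were higher, but the libraries of just 7 genes did not overlap in that direction. The same counts were not made over all genes, so none of them is shown to be particular to the respiratory chain genes.

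Complex I collects electrons from NADH, and its accessory subunit Ndufa10 showed the steepest move against the rest. Ndufa10 was 24.2 and 62.9 FPKM in WT oocytes, 154 and 130 in WT 1-cell embryos, 15.9 and 11.5 in WT late 2-cell embryos and 56.1 and 82.5 in WT 8-cell embryos. The 1-cell range over all genotypes, 107 to 170, lay above the oocyte range of 20.7 to 65.5 and the late 2-cell range of 5.46 to 15.9. As a share of the summed respiratory chain FPKM, its median went from 0.543% in oocytes to 5.04% in 1-cell embryos and 0.177% in late 2-cell embryos. Other complex I genes had lower FPKM at the 1-cell stage. Ndufc1, a small membrane subunit, had a median of 62.9 FPKM in oocytes, 2.10 in 1-cell embryos and 98.1 in late 2-cell embryos. In the same order Ndufv1, which binds NADH, had medians of 28.4, 2.2 and 8.99.

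Complex II is the only one with no mitochondrially encoded part, and it feeds electrons from the citric acid cycle. It took 4.49 to 5.74% of the respiratory chain FPKM in 1-cell embryos, 0.63 to 0.93% in late 2-cell and 0.61 to 1.16% in 8-cell embryos, against 1.5 to 3.33% in oocytes and 1.85 to 3.31% in epiblast. Sdha, the flavoprotein that oxidizes succinate, was 15.8 and 26.0 FPKM in WT oocytes, 48.6 and 46.5 in WT 1-cell embryos, and 5.00 and 2.54 in WT late 2-cell embryos. Sdhc, a membrane anchor, had medians of 38.9, 65.5 and 9.91 FPKM in the same order over all genotypes.

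Within complex III the core proteins parted from one another. Uqcrc2, one of its core proteins, was 99.4 and 99.8 FPKM in WT 1-cell embryos, where its partner Uqcrc1 was 0 and 1.08. Uqcrc1 was 0.916 and 8.16 in WT oocytes and 25.8 and 25.9 in WT late 2-cell embryos. Uqcrc2 was lower in every late 2-cell library than in any 1-cell library, so the core proteins moved in opposite directions between those stages. Uqcrb, a small subunit near the ubiquinone site, was 9.79 and 14.0 FPKM in WT 1-cell embryos, 37.0 and 71.6 in late 2-cell embryos and 825 and 596 in 8-cell embryos, where it ranked among the 3 highest respiratory chain genes. Complex III took 7.25 to 8.73% of the respiratory chain FPKM in 1-cell embryos and 12.3 to 14.7% in 8-cell embryos.

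Complex IV held the largest share in 1-cell and late 2-cell embryos, 38.9 to 44.2% and 39.9 to 44.0%, against 23.7 to 27.3% in epiblast. Cox8a, a small nuclear-encoded subunit, was the highest of all the genes at the 1-cell (275 ± 21.1 FPKM, SD, n = 6), late 2-cell (604 ± 109, n = 6) and 8-cell (699.9 ± 154, n = 6) stages over all genotypes. Cox7c behaved unlike it: 390 and 230 FPKM in WT oocytes, 1.22 and 1.76 in WT 1-cell embryos, 89.7 and 93.9 in WT late 2-cell embryos and 880 and 451 in WT 8-cell embryos. In oocytes Cox7c was among the 3 highest genes with Atp5e and Cox5a, and in 1-cell embryos among the 3 lowest kept, with Uqcrc1 and Ndufa11.

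**Figure D2:**
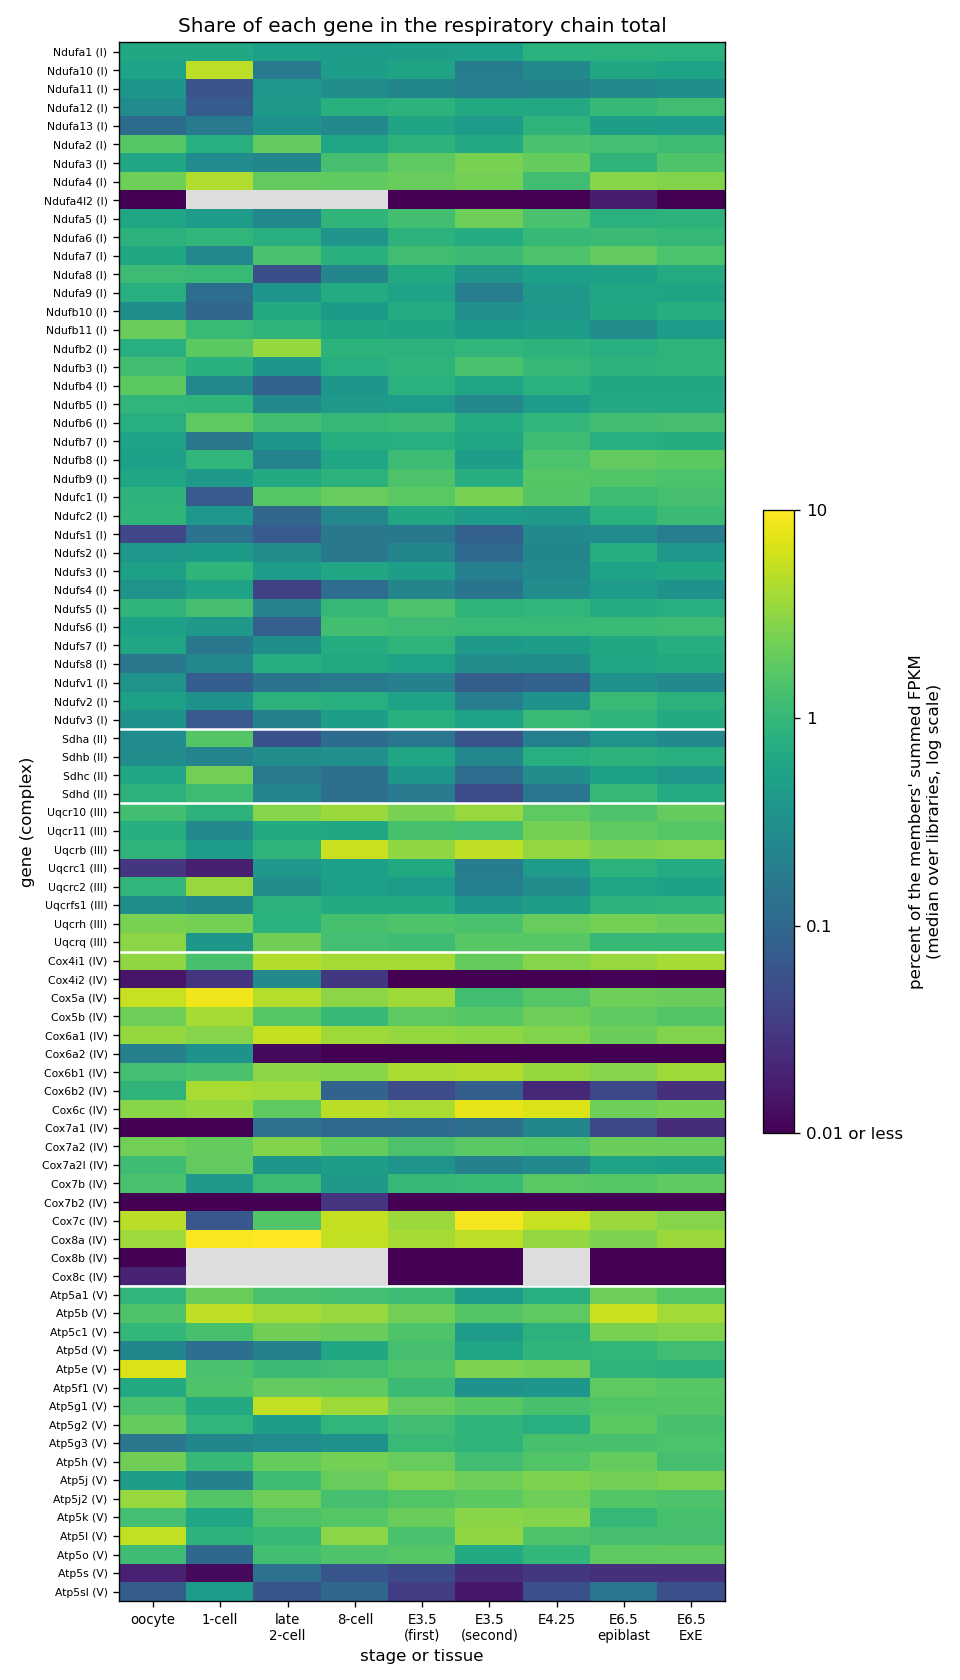
Each row is 1 gene, with its complex in brackets, and each column a stage or tissue; colour is the median over libraries of its percent of the summed respiratory chain FPKM, on a log scale from 0.01 or less to 10, and grey means not listed in that table. Ndufa10 stands out in 1-cell embryos at 5.04%, Cox6b2 goes from 3.79% in late 2-cell embryos to 0.0894% in 8-cell embryos, and Cox7c is lowest in 1-cell embryos at 0.0657%.

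Of the alternative genes of Cox6b, Cox6b1 led in oocytes, at 54.7 to 65.7% of the pair, and Cox6b2 in 1-cell embryos. From the 8-cell stage on Cox6b1 made up over 93% of the pair in every library. Cox6b is a subunit on the side of complex IV that faces cytochrome c. Cox6b2 was 60.8 and 79.7 FPKM in WT oocytes, 80.1 and 131 in WT 1-cell embryos and 187 and 171 in WT late 2-cell embryos. In WT 8-cell embryos it was 22.2 and 3.80, and in the WT libraries of the first E3.5 set 4.50 and 12.1. Cox6b1 was 73.5 and 125 FPKM in WT oocytes, 32.6 and 43.6 in WT 1-cell embryos, 117 and 237 in WT late 2-cell embryos, 316 and 458 in WT 8-cell embryos and 377 and 1074 in the first E3.5 set. Both genes were thus higher in late 2-cell than in 1-cell embryos, and only at the 8-cell stage was Cox6b2 lower while Cox6b1 was higher. The share of Cox6b2 in the sum of both genes was 34.3 to 45.3% in oocytes, 65.0 to 81.5% in 1-cell embryos, 41.8 to 61.6% in late 2-cell embryos and 0.822 to 6.91% in 8-cell embryos. It stayed at or under 6.10% in every later library, E6.5 tissues included.

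The sequences just before the start of both genes are shown because these genes parted so sharply, and they are from RefSeq (GRCm38.p6), matched by symbol. Each is the 250 bases before the transcript start, 5′ to 3′ on the gene's strand, and capitals mark any of 3 motifs searched on both strands: GCGCATGC, a core of the NRF1 site, CCGGAAG, a core of Ets family sites, and AAGATGGC, a core of the YY1 site. All 3 factors are known regulators of nuclear genes for the chain. The Cox6b1 window is chr7:30626115-30626364 and the Cox6b2 window chr7:4753095-4753344, both on the minus strand.
Cox6b1: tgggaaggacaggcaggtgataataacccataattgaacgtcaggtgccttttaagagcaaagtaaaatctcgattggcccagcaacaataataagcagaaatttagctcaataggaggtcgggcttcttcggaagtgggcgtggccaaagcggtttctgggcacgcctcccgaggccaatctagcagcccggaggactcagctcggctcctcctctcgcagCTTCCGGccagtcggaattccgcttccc
Cox6b2: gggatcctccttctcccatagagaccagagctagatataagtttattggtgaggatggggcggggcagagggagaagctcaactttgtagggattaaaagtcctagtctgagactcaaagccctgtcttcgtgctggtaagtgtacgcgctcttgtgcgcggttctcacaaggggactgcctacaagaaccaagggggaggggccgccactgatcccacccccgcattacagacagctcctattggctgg
Only the Cox6b1 window held a match, to the Ets core, in its reverse form. The 2 windows had 14 and 8 CpG dinucleotides in that order.

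Over the RefSeq windows from 250 bases before to 50 after the start, which matched 69 of the 84 genes, the NRF1 core was in 10 genes (14.5%, against 3.05% of 27025 genes in all), the Ets core in 16 (23.2%, against 9.93%) and the YY1 core in 11 (15.9%, against 3.19%). The Ets and YY1 letters can overlap, but no window of these genes held such an overlap. These are letter matches in windows of 1 length and say nothing of binding.

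The c ring genes of ATP synthase changed places too. Atp5g1 was 12.0 and 34.0 FPKM in WT 1-cell embryos and 279 and 299 in WT late 2-cell embryos, while Atp5g2 was 19.7 and 42.7, then 23.1 and 28.0. Atp5g1 made up 29.9 to 40.8% of the sum of the 3 genes in 1-cell embryos, 85.5 to 89.2% in late 2-cell embryos, 63.8 to 83.3% in 8-cell embryos and 31.5 to 37.1% in epiblast. Atp5g3 held 3.96 to 5.58% in late 2-cell embryos and 25.8 to 33.9% in epiblast. The 250 bases before the starts, again from RefSeq (GRCm38.p6) with the motifs in capitals, are chr11:96075632-96075881 for Atp5g1 and chr15:102671048-102671297 for Atp5g2, both on the minus strand. They are shown to compare the gene that took over in late 2-cell embryos with another that did not.
Atp5g1: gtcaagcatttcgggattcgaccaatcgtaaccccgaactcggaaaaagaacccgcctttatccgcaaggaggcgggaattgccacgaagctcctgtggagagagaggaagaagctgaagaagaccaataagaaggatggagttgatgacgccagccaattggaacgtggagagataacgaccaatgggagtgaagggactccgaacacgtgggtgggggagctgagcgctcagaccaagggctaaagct
Atp5g2: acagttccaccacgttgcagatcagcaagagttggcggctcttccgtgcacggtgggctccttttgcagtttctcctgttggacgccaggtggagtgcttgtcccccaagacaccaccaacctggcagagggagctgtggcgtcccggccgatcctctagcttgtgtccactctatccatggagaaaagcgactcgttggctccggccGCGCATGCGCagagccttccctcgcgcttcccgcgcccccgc
The Atp5g2 window holds 2 overlapping NRF1 cores, forward and reverse, and the Atp5g1 window none of the 3 motifs. The window of Atp5g3, which did not take over either, also held none, so these motifs do not separate the gene that led from the others.

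Other second genes were at low levels and in some stages listed at 0. Cox6a2 was 12.6 and 26.7 FPKM in WT oocytes and 9.20 and 16.2 in WT 1-cell embryos, made up 7.17 to 16.0% of Cox6a1 plus Cox6a2 in 1-cell embryos, and was at most 1.53 FPKM in any late 2-cell library. Cox4i2 was 9.16 and 18.4 FPKM in WT late 2-cell embryos, 3.90 to 7.01% of Cox4i1 plus Cox4i2 over all genotypes, and was listed at 0 in every library of the first E3.5 set and of E4.25. Cox7a1 was at most 1.21 FPKM in oocytes, 4.56 to 9.44 in late 2-cell and 8.12 to 32.9 in 8-cell embryos, and at most 28.9% of its set in any library. Cox7b2 was listed at 0 in every oocyte and 1-cell library and reached 9.05 in an 8-cell library. Ndufa4l2 and Cox8c had means of 0.831 and 1.82 FPKM in oocytes and 2.83 and 1.10 in epiblast.

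**Figure D3:**
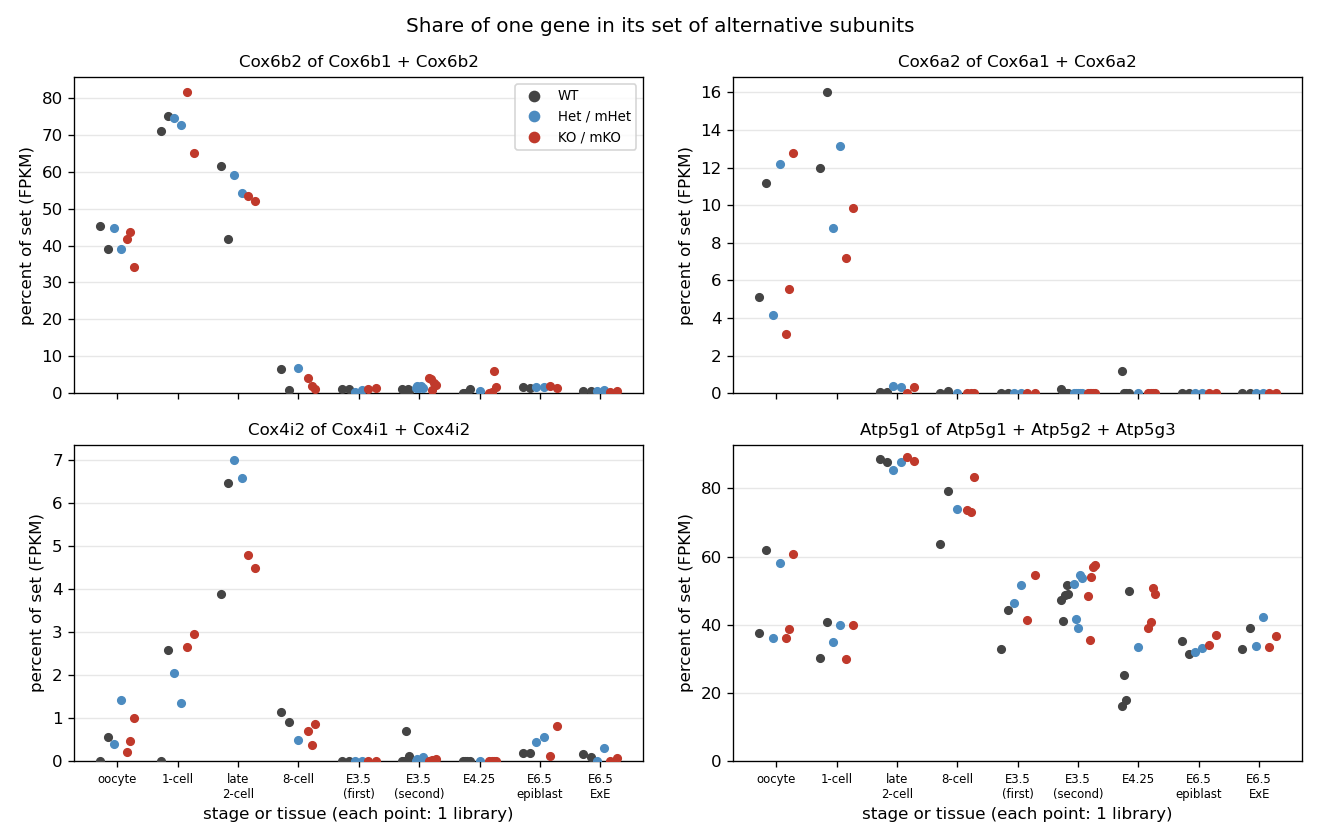
Percent of the summed FPKM of a set of alternative genes taken by 1 of them, with 1 point per library. Cox6b2 goes from 65.0 to 81.5% in 1-cell embryos to 6.91% at most in 8-cell embryos, Cox6a2 is seen in oocytes and 1-cell embryos, Cox4i2 peaks in late 2-cell embryos at 3.90 to 7.01%, and Atp5g1 peaks in the same embryos at 85.5 to 89.2%.

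In complex V the catalytic subunit Atp5b ranked high in 1-cell embryos (146 ± 14.4 FPKM, SD, n = 6) and was the highest of all the genes in epiblast (862 ± 234, n = 6). Atp5e, the small epsilon subunit of the F1 head, was the highest of all in oocytes at 491 ± 46.2 (n = 7). Atp5e was 32.4 and 39.7 FPKM in WT 1-cell embryos, so oocyte and 1-cell libraries did not overlap. Atp5o, a stalk subunit, was 62.1 and 152 in WT oocytes, 2.71 and 3.10 in WT 1-cell embryos and 55.7 and 64.0 in WT late 2-cell embryos.

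Oocyte proportions went with the series of library names that a library belonged to. In 4 libraries (WT 1, Het 1, KO 1 and KO 2) complex I took 23.8 to 25.9% of the respiratory chain FPKM and complex IV 33.0 to 36.2%. In the other 3 (WT 2, Het 2 and KO 3) complex I took 35.3 to 35.8% and complex IV 24.4 to 25.7%. Atp5g2 exceeded Atp5g1 in the first 4, with Atp5g1 at 36.1 to 38.8% of the set, while Atp5g1 led in the other 3 at 58.2 to 61.9%. Which c ring gene led in oocytes thus went with the series of library names. The first 4 libraries also had Rn45s shares of 1.26 to 1.47% and 7316 to 8443 genes at 1 FPKM or more. The other 3 had 0.209 to 0.391% and 9432 to 9801 genes. The part of these differences in the proportions was not tested. Cox6b2 made up 41.8 to 45.3% of its pair in the first 4 and 34.3 to 39.2% in the other 3. In 8-cell embryos 1 WT and 1 mKO library had names of a separate series and complex I at 26.4 to 28.1% against 22.3 to 23.5% in the other 4.

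Genotype was tested within each table with limma, a linear model across all genes kept, on log2(FPKM + 1), with p-values adjusted over all genes by Benjamini and Hochberg and a threshold of 0.05. Differences on that scale understate those of low genes. No respiratory chain gene passed in oocytes or in most embryos. In KO oocytes 0 of 82 genes passed, with 0 at an unadjusted p under 0.05, and 0.0102% of all genes passed. The 2 genes with the smallest p in each direction were Cox4i2 (0.54, SE 0.62) and Atp5d (0.42, SE 0.64), and Cox8c (-0.89, SE 0.64) and Atp5sl (-0.69, SE 0.77), each with limma adjusted p = 1. Het oocytes gave 0 of 82 (0 unadjusted, 0% of all genes), with Cox4i2 0.93, Atp5d 0.37, Ndufa4l2 -0.44 and Atp5k -0.36 nearest. The median difference had no stable sign: it was -0.08 in KO and -0.05 in Het oocytes, and with 1 library left out it ran from -0.53 (without WT replicate 1) to 0.37 (without WT replicate 2) in KO and from -0.52 to 0.42 (without Het replicates 2 and 1) in Het. Markers of follicle cells, which surround the oocyte, summed to 0.248 to 26.3 FPKM in oocyte libraries, with Amh at 0 in each, against 6300 to 14149 for the 7 oocyte markers, and their part in these values was not tested.

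At the 1-cell stage mKO embryos gave 0 of 77 (1 unadjusted), where 0.0116% of all genes passed, and mHet embryos 0 of 77 (0 unadjusted, 0% of all genes). Ndufb7, an accessory subunit of complex I, was nearest in mKO at 2.71 ± 0.12 FPKM (SD, n = 2) against 6.76 ± 2.64 in WT (-1.02, SE 0.34, limma adjusted p = 1), and Ndufv3 (-0.58), Uqcrq (0.44) and Ndufb8 (0.29) followed. For mHet the nearest were Ndufb8 (0.34), Uqcrq (0.43), Cox4i1 (-0.31) and Uqcr10 (-0.25).

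Late 2-cell mKO embryos gave 0 of 80 (5 unadjusted) and 0.00969% of all genes. Ndufa5, a peripheral arm subunit of complex I, was 3.77 ± 0.42 FPKM (SD, n = 2) against 14.5 ± 4.57 in WT (-1.67, SE 0.32, limma adjusted p = 0.303), and Cox7a2l (-0.96), Ndufa9 (0.82) and Atp5sl (0.78) were next. In mHet embryos 0 of 80 passed (7 unadjusted, 0% of all genes). The higher mean was in mHet for 67 of 80 genes (83.8%, against 53.8% of all genes). The median of the 80 was 0.20 against 0.03 for all genes. Without mHet replicate 2 that median was -0.05. Atp5sl (1.34), Ndufa9 (0.88), Ndufa10 (-0.42) and Uqcrc1 (-0.16) had the smallest p.

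At the 8-cell stage 0 of 80 passed in mKO (1 unadjusted, 0.012% of all genes). Cox7b2 was 7.87, 2.75 and 4.68 FPKM in mKO and 0 and 0.497 in WT (2.23, SE 0.40, limma adjusted p = 0.310), and it was 9.05 in the single mHet library. It reached 1 FPKM in no WT library, so it entered the fit only through the groups where it was higher. Uqcr10 (0.40), Ndufa4 (-0.55) and Cox7a1 (-0.72) were nearest among the rest. The lone mHet library had no test.

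No respiratory chain gene passed in either set of E3.5 blastocysts, and the sign of the median rested on single libraries in both for mKO. In the first, 0 of 79 genes passed in mKO (1 unadjusted, 0.0407% of all genes). There 78 of 79 (98.7%) had the higher mean, against 67.5% of all genes, and the median was 0.54 against 0.22 for all genes. In the second, 0 of 79 passed (0 unadjusted, 0.0539% of all genes), and 71 of 79 had the lower mean. The higher mean was found there for 10.1% of the 79 and 35.5% of all genes, and the median was -0.43 against -0.10. In the first set the median was -0.31 without WT replicate 1 and 1.34 without WT replicate 2. WT replicate 1 had an Rn45s share of 21.0%, against 2.13 to 9.12% in the other libraries of that set, and a median of 69.0 FPKM over these genes, against 226 in WT replicate 2. Without mKO replicate 4 of the second set, whose Rn45s share was 69.5% and whose respiratory chain genes took 0.93% of its FPKM with it included, the median was 0.06, and the lowest with a library left out was -0.79 (without mKO replicate 7). In the first set, the Y-linked genes Ddx3y, Eif2s3y, Kdm5d and Uty summed to 45.0 and 59.7 FPKM in WT and 0.151 and 0.101 in mKO libraries, so sex and genotype cannot be told apart there. Cox7b2 (1.28) and Cox7a1 (0.96) had the smallest p in the first set and Sdha (-0.01) was the only lower gene. Cox7b2 was at most 1.52 FPKM there and was kept in 2 of the 4 runs that left out 1 library. It reached 1 FPKM in no WT library of that set, so it entered the fit only through the group where it was higher. Cox6b2 (0.62), Cox7b2 (0.32), Cox6c (-0.90) and Atp5k (-0.73) were nearest in the second.

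In mHet blastocysts 0 of 79 passed in the first set (0 unadjusted, 0% of all genes; median 0.58, all genes 0.43) and 0 of 79 in the second (1 unadjusted, 0% of all genes; median 0.31, all genes 0.14). The first median was -0.25 without WT replicate 1 and 1.45 without WT replicate 2, and the second ran from 0.13 (without WT replicate 5) to 0.61 (without WT replicate 7). Sdhd (2.04, SE 0.99) and Ndufv1 (1.46, SE 0.83), which bind ubiquinone and NADH, had the smallest p in the first, both at limma adjusted p = 0.502, and Cox6b2 (-0.56) and Atp5k (-0.17) were the nearest of the lower genes. In the second set these were Cox6b2 (1.08), Cox7a1 (0.61), Atp5s (-0.09) and Atp5k (-0.05). Cox6b2 thus had opposite signs in the 2 sets, neither past the threshold, and without WT replicate 2 of the first set it was 0.07 there.

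At E4.25, 7 of 79 respiratory chain genes (8.86%) rose in mKO embryos by limma and none fell, with 31 at an unadjusted p under 0.05, where 14.6% of all genes passed. Of all genes, 1370 passed as higher and 24 as lower, so the direction was that of genes in general. The median of the 79 was 1.45 against 0.74 for all genes, and 78 of 79 (98.7%) had the higher mean, as did 86.2% of all genes. Ndufv1, the NADH-binding subunit of complex I, was 0.534, 1.29, 0.238 and 2.80 FPKM in the 4 WT libraries and 5.95, 13.7, 7.38 and 11.5 in the 4 mKO libraries, with no overlap (2.33, SE 0.47, limma adjusted p = 0.00898). The mHet library had 6.83. Another 3 complex I genes rose without overlap: Ndufa10 (24.7 ± 13.2 FPKM in mKO and 4.74 ± 3.00 in WT, SD, n = 4), Ndufs3 (22.7 ± 8.50 and 5.69 ± 3.51) and Ndufs8 (33.6 ± 21.8 and 7.24 ± 2.92). Atp5c1, the gamma shaft of ATP synthase, differed by 2.76 (SE 0.82), Atp5f1, its b stalk, by 2.33 (SE 0.68) and Cox7a1 by 2.76 (SE 0.79), and the libraries of these 3 overlapped. Of the 79 genes, passed or not, 8 were higher in every mKO library than in any WT library and 0 lower. That count was not made over all genes, so the lack of overlap is not shown to be particular to these genes.

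Rn45s took 21.0 to 68.6% of the FPKM in WT and 11.7 to 52.4% in mKO libraries at E4.25, and the lowest respiratory chain share without it was 1.98% in WT replicate 3 and 3.07% in mKO replicate 3. Of the 7 genes, 1 passed with Rn45s removed, 1 with its share as a term in the fit, which was added after seeing the data, and 0 with median ratio scaling. Leaving out 1 library at a time gave 1 to 24 genes: 24 when mKO replicate 3 was left out, 3 for WT replicate 3, 2 for mKO replicate 1, and 1 for each of WT replicate 2 and the mKO libraries numbered 2 and 4. Ndufv1 passed in all 8 of these runs (limma adjusted p 0.00597 to 0.0375), but not with median ratio scaling (0.154). Its direction and that of the other 6 was higher under each of these settings, including median ratio scaling. The part of Rn45s and of the libraries in this result was not tested further.

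In other lists of mitochondrial genes at E4.25, each gene that passed was higher in mKO embryos by limma, beside the 14.6% of all genes that passed there. Of all genes, 1370 passed as higher and 24 as lower, so this direction is not particular to these lists. The share of each list was not tested against that of all genes. Of the assembly factors 6 of 35 rose, including Acad9 (2.26), a factor for complex I, and Cox10 (1.99), which makes heme for complex IV. Of the citric acid cycle and pyruvate genes 3 of 20 rose, including Idh3b (2.38) and Dlst (1.90), and of the electron carriers 2 of 12, Etfb (3.01) and Etfdh (1.92). Of the mitochondrial ribosomal proteins 11 of 76 rose, while 0 of 15 genes for biogenesis and mitochondrial DNA expression and 0 of 16 glycolysis genes passed, and none of these lists had a gene that fell. The medians were 0.95 for assembly factors, 1.47 for the citric acid cycle, 1.17 for the ribosomal proteins and 0.20 for glycolysis, against 0.74 for all genes.

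**Figure D4:**
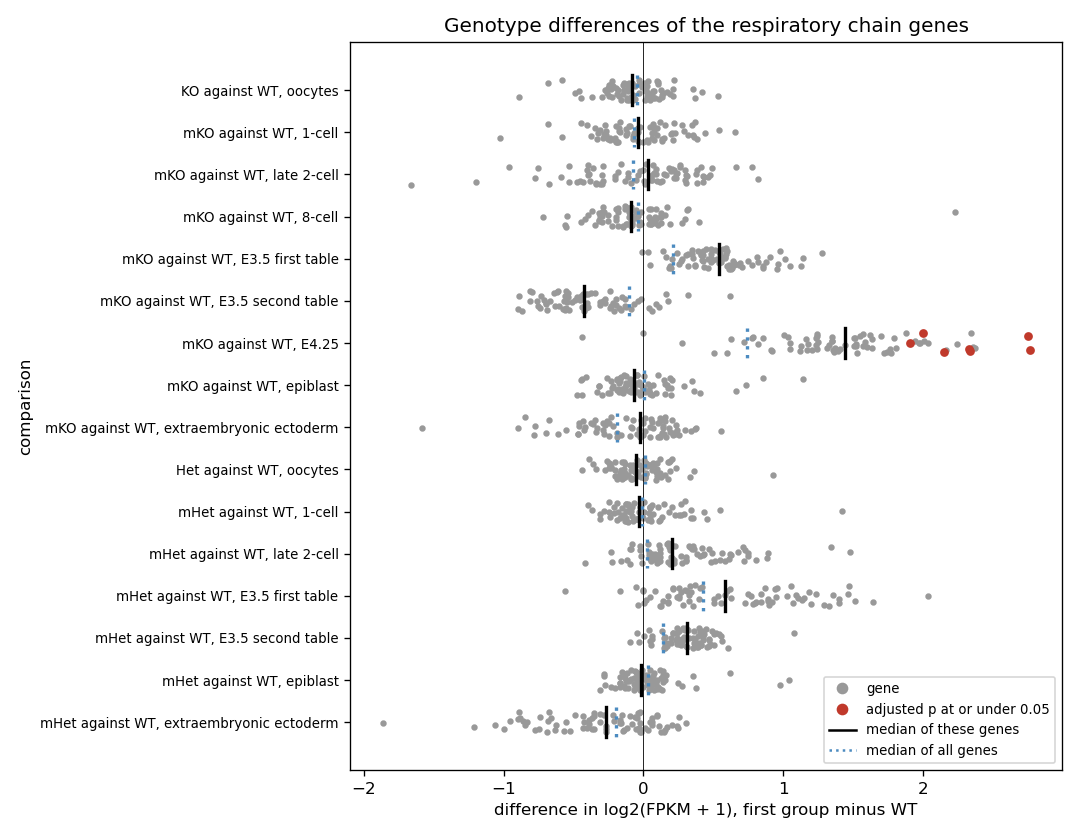
Each grey point is 1 respiratory chain gene, placed by its difference in log2(FPKM + 1) from WT, for each comparison; red points passed the threshold, the black bar is the median of these genes and the dotted blue bar that of all genes. At E4.25 the median is 1.45 and 7 genes are red. The 2 mKO comparisons at E3.5 lie at 0.54 and -0.43, and each median changed sign when 1 library was left out.

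At E6.5 the genotypes again gave no calls. In epiblast 0 of 81 passed for mKO (1 unadjusted, 0.00907% of all genes) and 0 of 81 for mHet (1 unadjusted, 0.0272% of all genes), with medians of -0.06 and -0.02 that ran from -0.24 to 0.07 and from -0.21 to 0.22 when 1 library was left out. Cox8c was 1.42 and 3.48 FPKM in mKO and 0.342 and 0.647 in WT epiblast (1.15, SE 0.33, limma adjusted p = 0.961), and Ndufa4l2 (0.73), Uqcrb (-0.44) and Ndufc2 (-0.41) were nearest after it. Cox8c reached 1 FPKM only in the mKO epiblast libraries, so it entered the fit only through the group where it was higher. Ndufa4l2 was 3.16 and 4.54 in mHet and 0.852 and 1.93 in WT epiblast (1.04, SE 0.39, limma adjusted p = 1). Cox4i2 (0.98), Uqcrb (-0.28) and Ndufa5 (-0.31) were nearest of the other genes for mHet epiblast.

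In extraembryonic ectoderm 0 of 81 passed for mKO (0 unadjusted, 0% of all genes) and 0 of 81 for mHet (1 unadjusted, 0% of all genes). Sdhd, a complex II anchor, was 70.2 and 68.2 FPKM in mKO and 191 and 230 in WT (-1.59, SE 0.77, limma adjusted p = 0.654), and 180 and 17.5 in mHet (-1.87, SE 0.77, limma adjusted p = 0.677). The mHet library with 17.5 had an Rn45s share of 11.6%, against 1.46% in the other, and without it the median of the 81 genes was -0.05 in place of -0.27. Ndufs1 (-0.68), Cox7b (0.56) and Cox8a (0.34) were nearest after Sdhd for mKO, and Ndufb5 (-0.90), Uqcr11 (0.25) and Atp5e (0.30) for mHet. The mKO effect did not pass as different between the tissues for any of 81 genes (1 unadjusted, 0% of all genes), and Cox8c (-1.58), Ndufa4l2 (-1.06), Cox7b (0.74) and Uqcrb (0.55) were nearest. The value of Cox8c has the same limit as in epiblast, since the gene entered the fit only through the mKO epiblast libraries.

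The tissues themselves differed in a few subunits. Extraembryonic ectoderm was set against epiblast over 3 genotypes, 6 libraries against 6: 12 of 81 genes passed (14.8%), 6 higher and 6 lower, where 33.5% of all genes passed. The median of the 81 was 0.05 against -0.11 for all genes, and it ran from -0.03 to 0.09 with 1 library left out. The 8 epiblast markers summed to 752 to 1047 FPKM in epiblast and 231 to 333 in extraembryonic ectoderm, where 4 of them reached 1 FPKM in every library. The 8 extraembryonic ectoderm markers summed to 294 to 467 FPKM there and 7.77 to 58.0 in epiblast, and the 8 visceral endoderm markers to 1.66 to 33.0 in extraembryonic ectoderm and 0.801 to 3.06 in epiblast. The part of other cells in the tissue differences was not tested. Ndufa4l2, a paralog of the complex IV-bound subunit Ndufa4, had 0.852, 1.93, 3.16, 4.54, 1.49 and 5.04 FPKM in epiblast and 0 to 0.590 in extraembryonic ectoderm, so the tissues did not overlap (-1.52, SE 0.23, limma adjusted p = 0.000229). Cox8c was 0.285 to 3.48 in epiblast and 0 in 5 of 6 extraembryonic libraries, with 0.828 in the other (-0.77, SE 0.19, limma adjusted p = 0.00838). Ndufa4l2 passed in all 12 runs that left out 1 library and Cox8c in the 10 in which it was kept. Neither gene reached 1 FPKM in an extraembryonic library, so both entered the fit only through the tissue where they were higher. Cox8c reached it only in the mKO epiblast libraries. These runs are therefore no support for either gene, and both are low-level genes.

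Of the other lower genes, Cox6b2 was 4.72 ± 1.22 FPKM (SD, n = 6) in extraembryonic ectoderm and 8.00 ± 1.74 in epiblast with no overlap, and Cox4i2, Atp5sl and Cox7a1 overlapped (-0.92, -0.90 and -0.64). The higher genes were Ndufa3 (264 ± 35.7 against 156 ± 44.4 FPKM, 0.79, SE 0.23, limma adjusted p = 0.0173), the X-linked Ndufb11 (83.5 ± 15.7 against 49.9 ± 9.67, 0.73), Uqcr10 (359 ± 33.4 against 241 ± 43.7, 0.59), Ndufa8 (0.57), Cox6b1 (672 ± 43.6 against 468 ± 71.5, 0.53) and Cox8a (0.53). Cox6b1 and Cox6b2 thus moved in opposite directions, with Cox6b2 at 0.397 to 0.979% of the pair in extraembryonic ectoderm and 1.51 to 1.97% in epiblast. The count was not stable: leaving out 1 library gave 3 to 34 genes, with 3 without the WT epiblast library numbered 4 or the mKO epiblast library numbered 3 and 34 without mHet replicate 1 of extraembryonic ectoderm, and each of the 12 other than Ndufa4l2 and Cox8c lost its call in at least 4 of the 12 runs.

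**Figure D5:**
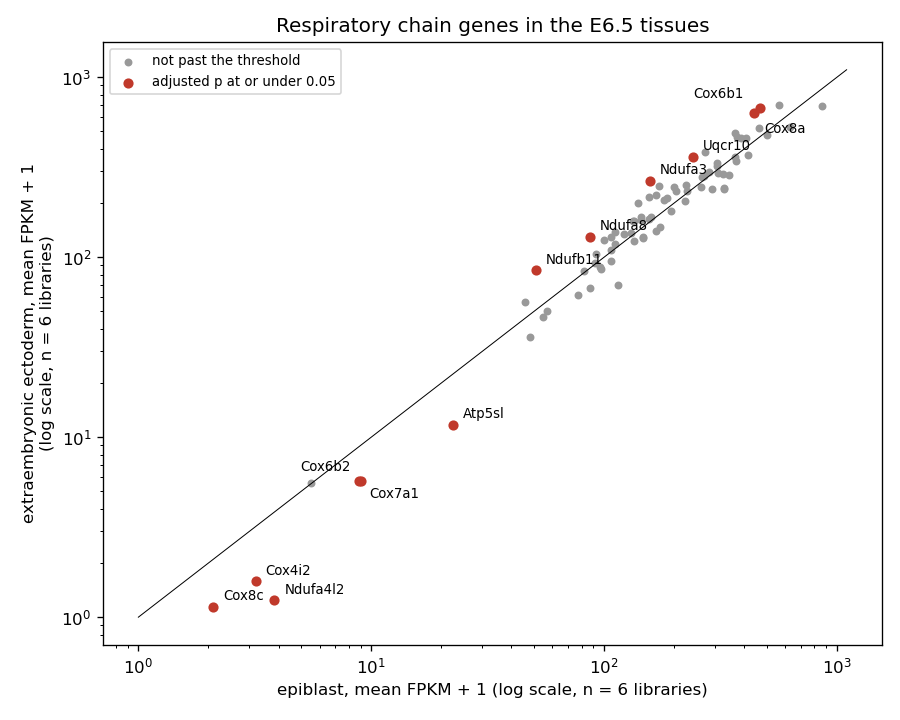
Mean FPKM + 1 of each respiratory chain gene in epiblast (horizontal) and extraembryonic ectoderm (vertical), both on log scales and over 6 libraries; the line marks equal levels and red points passed the threshold. The red points above the line reach Cox6b1, at 672 FPKM in extraembryonic ectoderm and 468 in epiblast, and those below it have at most 21.5 FPKM in either tissue (Atp5sl).

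Of the other mitochondrial lists in that comparison, where 33.5% of all genes passed, 5 of 37 assembly factors were higher in extraembryonic ectoderm, among them Cox14 (1.08) and Cox17 (0.84), which act in complex IV assembly, and none was lower. Polg, the mitochondrial DNA polymerase, differed by 2.38, and with Esrra (0.85) it made up the 2 of 16 biogenesis genes that passed, both higher. Among 13 electron carriers Slc25a4 (2.26), an ADP/ATP exchanger, was higher and Cyct (-2.49), the testis form of cytochrome c, and Gpd2 (-1.18) were lower. In the citric acid cycle and pyruvate list Mpc1 (2.42) and Mpc2 (1.53), which carry pyruvate into mitochondria, were higher and Idh2 (-0.96) and Pdha1 (-0.85) lower, of 20 genes. Glycolysis had 2 of 21 higher, Hk1 (1.70) and Pfkp (2.24), and 3 lower, including Ldhb (-2.51) and Eno3 (-2.60). The mitochondrial ribosomal proteins had 5 higher and 3 lower of 76.

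Ndufa1, Ndufb11 and Cox7b are the X-linked genes of the set, by the GRCm38.p6 annotation. Beside Ndufb11 between the tissues, no X-linked gene passed in any comparison. At E4.25 in mKO embryos they differed by 2.36, 1.88 and 1.74 (limma adjusted p = 0.0835, 0.0607 and 0.160), and in the first E3.5 set, where the mKO libraries lacked Y-linked RNA, by 0.86, 0.82 and 0.86 (limma adjusted p = 0.949 for each).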

How the data were processed

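RNA was measured by Smart-seq2 in 68 libraries, of which 67 were used: the mHet libraries at E4.25 held identical values and were counted as 1. The authors deposited 8 tables of FPKM, per the file headers, and each was normalized separately, so tests stay within a table. The submitters' processing notes name HTSeq 0.6.0, HISAT2 2.2.1 and Trim Galore 0.4.2 with builds mm9 and hg19; for the tool that made the FPKM, the annotation and any use of strand, the sources used here name nothing. FPKM keep no count, so the depth of each library is unknown and no counting interval is given. Near-identical or overlapping genes may share reads, and their values are uncertain. Epiblast columns carry numbers that are not in the sample titles and were matched to their group only.

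A gene entered the fit of a table if 2 or more of its libraries had 1 FPKM. Each table was fitted across all genes kept with limma 3.58.1 in R 4.3.3 (trend) on log2(FPKM + 1), a log2 scale computed here and not by the authors, with all groups of the table in the fit and a threshold of 0.05, in 18 comparisons. The code was tested on simulated data. The text names the members that passed or, where none did, those with the smallest p in each direction, members printed for their level or as alternative genes, and genes of other mitochondrial lists. Members and lists were chosen with earlier results of these data known. Alternatives were another pseudocount (0.1), no filter, median ratio scaling, removal of Rn45s, a replicate block, library-name series, sex and each library left out; the Rn45s share as a term was added after seeing the data. Promoter windows came from RefSeq by gene symbol, and no coordinate of the files was used with them.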

Additional observations from a re-analysis of the deposited data

Results flagged for a closer look

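Of 54 groups of libraries and measures tested for a library far from the others of its group, 4 held one, and chance flags about 1 in 20 groups. In the second set of E3.5 blastocysts, mKO replicate 4 stood apart in 3 measures. Its respiratory chain genes had a median percentile of 89.8, against 94.4 to 95.8 in the other mKO libraries. Complex IV took 30.3% of their summed FPKM, against 36.4 to 37.2%, and complex V took 24.7%, against 21.5 to 22.3%. At E4.25, WT replicate 3 had a median percentile of 82.2, against 94.0 to 95.6 in the other WT libraries. These libraries had the highest Rn45s shares of their tables, 69.5 and 68.6%, and the part of that transcript in these values was not tested.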

How the results depend on the processing

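Across settings, single named genes kept direction and side of the threshold in 935 results, lost the threshold in 144, gained it in 6 and reversed in 18; the cause was not tested. The genes called at E4.25 in mKO, 7 as reported, numbered 2 with a pseudocount of 0.1, 1 without a filter, 0 with median ratio scaling, 1 with Rn45s removed, 1 with its share as a term, 15 with the library-name series, 50 with sex as a term and 1 to 24 with a library left out. With the replicate number as a block they numbered 27 at E4.25, 1 in late 2-cell mKO (Ndufa5) and 1 in 8-cell mKO (Cox7b2). Cox7b2 reached 1 FPKM in no WT 8-cell library. Numbers were treated as shared names only. Same-numbered deviations correlated at 0.51 to 0.56 at the 1-cell, 0.21 to 0.26 at the late 2-cell stage and 0.16 to 0.57 in the first E3.5 set, each with 2 pairs a comparison, at 0.0586 to 0.14 at E4.25, and at values on both sides of 0 or below it elsewhere. No paired analysis was possible for epiblast or the tissues because epiblast columns match only a group; the library-name term was not run at E6.5 for that reason.

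Between tissues, 20 genes were called with the Rn45s term and 3 to 34 with a library left out. Leaving out a library gave 0 to 1 calls in the first E3.5 set for mKO, 0 to 30 for mHet (30 without WT replicate 2), and 0 to 26 in mHet extraembryonic ectoderm (26 without mHet replicate 1). Median ratio scaling gave medians of 0.22 for mKO and -0.013 for mHet extraembryonic ectoderm and 0.25 for the difference between tissues; the Rn45s term gave -0.0575 for mHet. Left-out libraries gave medians of -0.0466 to 0.51 in late 2-cell mHet, -0.39 to -0.0475 in mHet extraembryonic ectoderm and -0.15 to 0.26 for the difference between tissues. The median share of summed FPKM went from 3.54 to 3.69% at the 8-cell stage, 4.77 to 6.46% in the second E3.5 set and 2.41 to 4.47% at E4.25 with Rn45s removed.

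Reversals came with left-out libraries. In oocytes Cox4i2 (KO) ran from -0.14 to 1.22, Atp5d from -0.0915 to 0.93 (KO) and -0.15 to 0.88 (Het), and Atp5k (Het) from -1.17 to 0.45. Uqcrc1 in late 2-cell mHet ran from -0.38 to 0.0578. In the first E3.5 set Sdha (mKO) ran from -0.78 to 0.76, Cox6b2 (mHet) from -1.18 to 0.0667 and Atp5k (mHet) from -0.40 to 0.0643. In the second, for mHet, Atp5k ran from -0.17 to 0.0826 and Atp5s from -0.29 to 0.0925. In mHet epiblast Uqcrb ran from -0.68 to 0.12 and Ndufa5 from -0.88 to 0.26, and in mHet extraembryonic ectoderm Uqcr11 from -0.00309 to 0.51 and Atp5e from -0.13 to 0.73. Depth is unknown for FPKM, so limits from depth cannot be given.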
